A study of Homo sapiens with 12 samples.

Results

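LENG8 and 31 other genes of the splicing regulatory machinery were measured in 143B cells, an established human osteosarcoma line. The 32 genes were taken as a fixed list of symbols: LENG8, 4 CDC-like kinases (CLK1 to CLK4), 3 other kinases of SR proteins, the 12 SR proteins SRSF1 to SRSF12, both TRA2 proteins, 3 LUC7-like proteins and 7 SR-related proteins. All 32 were among the 24180 gene symbols of the count tables, and all 32 passed the filter on low counts that left 15407 genes for testing. The list was chosen by known roles in splicing and by the fall of LENG8 against the control in these same libraries, so the levels of LENG8 against the control are given as a description, with no test.

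The libraries fall into 4 groups of 3. M-BSG-Hot carries the material name 5-MNP-BSG with a plus sign in the sample titles, M-BSG carries the name 5-MNP-BSG, BSG carries no other name, and NC is the control. All cells were 143B of wild-type genotype, grown in DMEM with fetal bovine serum and antibiotics. Magnetic hyperthermia with a borosilicate glass for osteosarcoma is the subject that the title of the series gives. Every one of the 12 samples, controls too, carries the same treatment text, which names 5-MNP-BSG and an alternating magnetic field, so which material, field, dose or time each group received cannot be read from the labels. The labels do not say that the 3 libraries of a group came from separate cultures, and p-values therefore measure only the spread between these libraries, which may be technical.

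SR proteins bind pre-mRNA through RNA-recognition domains and promote the choice of splice sites through arginine- and serine-rich tails. CLK and SRPK kinases phosphorylate those tails, which sets where SR proteins sit in the nucleus and how they act in splicing. Many genes of this machinery regulate themselves through introns that are kept in nuclear transcripts, or through exons with early stop codons that send the transcript to nonsense-mediated decay. In the GENCODE 29 annotation, 27 of the 32 genes (84.4%) have at least 1 transcript classed as retaining an intron, against 52.3% of the 16317 protein-coding symbols in the tables. Transcripts classed for nonsense-mediated decay were annotated for 29 of the 32 genes (90.6%), against 38.6% of all protein-coding symbols. Retained introns were part of how the list was described when chosen, so these shares describe the list and nothing is read from them. The deposited values are 1 count per gene, so spliced, intron-retaining and decay-prone transcripts of a gene are summed in every value below and cannot be told apart.

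Total counts ran from 34434993 to 38163152 per library. In BSG and M-BSG, replicate 1 differed most from its group, with a chi-square per degree of freedom of 48.2 or more for BSG 1 and 34.95 or more for M-BSG 1, against 7.87 and 8.71 between the other BSG and the other M-BSG libraries. Replicate 1 also differed most in NC, by less, at 9.07 or more against 3.43 between NC 2 and NC 3. M-BSG-Hot 3 differed from M-BSG-Hot 1 by 43.1 on the same measure. M-BSG-Hot 2 differed by 18.9 from M-BSG-Hot 3 and by 16.3 from M-BSG-Hot 1, so the measure singles out neither of that pair. BSG 1, M-BSG 1 and M-BSG-Hot 3 had the largest shares of ribosomal protein counts in their groups (9.86% in M-BSG-Hot 3, 9.95% in M-BSG 1 and 11.3% in BSG 1, against 7.74% to 8.39% in NC). In them, the longest 25% of tested genes also stood lowest in their group relative to the shortest 25%, by -0.22 in M-BSG-Hot 3, -0.27 in M-BSG 1 and -0.58 in BSG 1 on the log2 scale. NC 1 likewise had the largest ribosomal protein share of NC (8.39%). Its value for long against short genes was 0.015, against 0.21 in NC 2 and 0.22 in NC 3. Results were also computed without BSG 1, M-BSG 1 and M-BSG-Hot 3, and without each library in turn. Of the marker genes, 6 of 7 mesenchymal, 3 of 5 immune, 4 of 4 endothelial and 4 of 5 epithelial ones were in the tables. CPM are read counts relative to the library total, taken without TMM adjustment for the markers and with it for all gene values below. Mesenchymal markers summed to 4004 to 4785 CPM over the 12 libraries, with VIM alone at 3606 to 4411 CPM and SPARC at 317 to 391 CPM. The others were low, with COL5A1 at 19.1 to 31.5, RUNX2 at 9.8 to 16.85, TWIST1 at 9.81 to 16.6 and COL1A1 at 5.15 to 9.24 CPM. The epithelial marker EPCAM had 14.2 to 20.8 CPM. Endothelial markers summed to at most 2.69 CPM, epithelial markers to 15.3 to 21.7 CPM, nearly all EPCAM, and immune markers to 119 to 160 CPM, nearly all CD68.

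The 32 genes differed widely in level per gene length. In NC, SRSF9 averaged 156 ± 5.7 FPKM (fragments per kilobase of gene length and per unit of depth; SD, n = 3), SRSF5 127 ± 0.31 FPKM and SRSF2 93.9 ± 1.1 FPKM, the 3 highest of the 32. SRSF12 was lowest at 0.939 ± 0.063 FPKM, and DYRK1A was next at 1.42 ± 0.096 FPKM. LENG8 stood at 5.40 ± 0.69 FPKM in M-BSG-Hot, 7.19 ± 0.32 in M-BSG and 4.96 ± 0.74 in BSG, against 18.1 ± 0.42 FPKM in NC. The 12 SR proteins together summed to 704 to 743 FPKM in M-BSG-Hot, 816 to 857 FPKM in M-BSG and 802 to 859 FPKM in BSG, against 724 to 732 FPKM in NC. The summed level of the 12 genes was thus above every NC library in each M-BSG and BSG library, and overlapped NC in M-BSG-Hot.

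**Figure D1:**
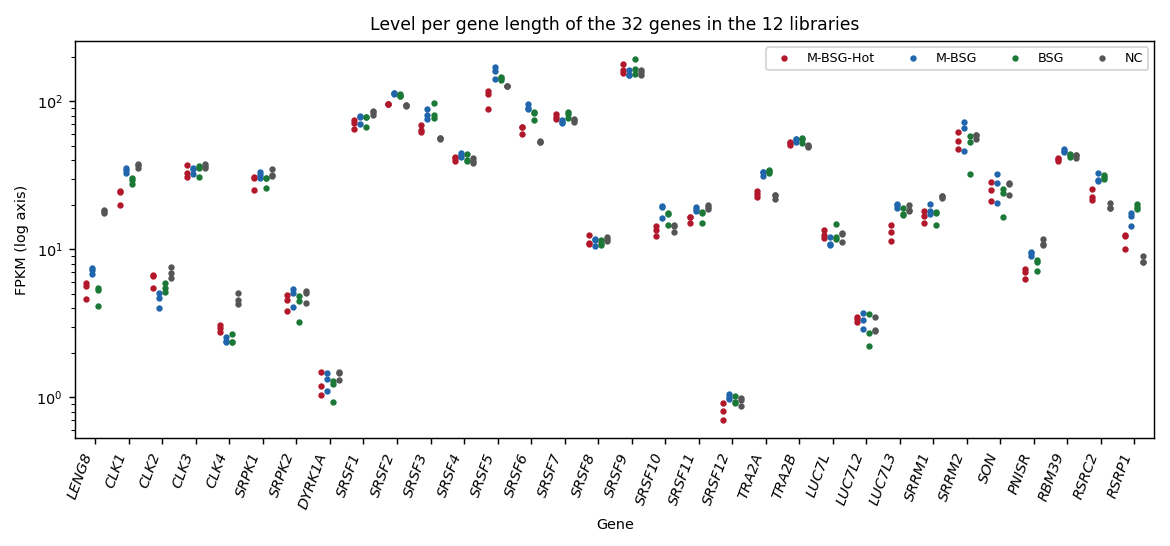
Level per gene length (FPKM, log axis) of the 32 genes in the 12 libraries; each point is 1 library, coloured by group, with M-BSG-Hot left and NC right within a gene. SRSF9, SRSF5 and SRSF2 have the highest NC levels and SRSF12 the lowest, and the LENG8 points of the 3 treated groups lie below those of NC.

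Splicing regulators were called in both directions against NC, and in M-BSG-Hot against M-BSG only in the lower direction. A gene was called when edgeR's quasi-likelihood test, two-sided and fitted on all 15407 genes, gave a Benjamini-Hochberg adjusted p under 0.05. LENG8 against NC, a description, is left out of the counts that follow. In M-BSG-Hot against NC, 3 of the 31 other genes were called higher, where 1.4% of all tested genes were, and 5 were called lower, where 3.51% were. For M-BSG against NC the counts were 7 higher, with 3.22% of all genes, and 2 lower, with 3.13%. For BSG against NC they were 8 higher, with 5.5% of all genes, and 3 lower, with 6.22%. Counted by libraries that did not overlap, 8 genes lay above NC in every M-BSG-Hot library and 8 below it, where 13.5% and 14.5% of all genes did. The counts were 13 above and 4 below for M-BSG (12.4% and 15.1% of all genes), and 11 above and 6 below for BSG (18.1% and 20.6%). The 3 comparisons share the NC libraries and the list was drawn up with them known, so nothing is read from these shares.

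**Figure D2:**
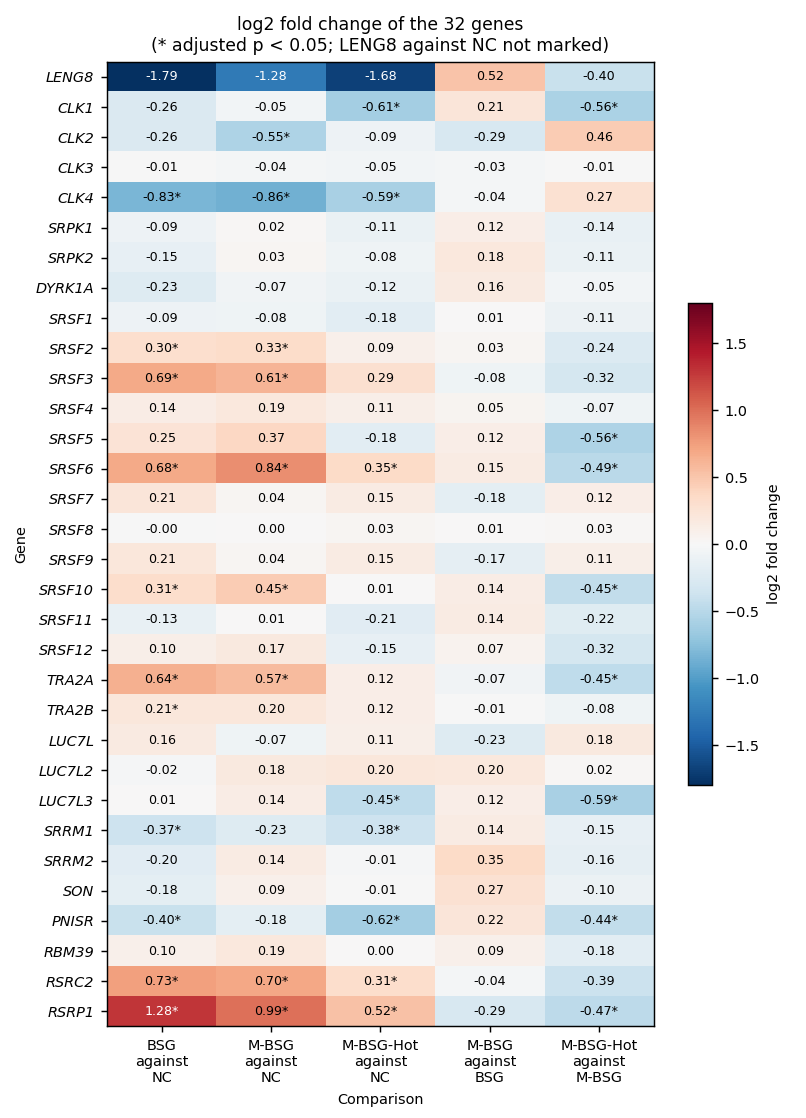
Log2 fold change of the 32 genes (rows) in the 5 comparisons (columns), blue for lower and red for higher; an asterisk marks edgeR adjusted p under 0.05, and LENG8 against NC, a description, carries none. RSRP1 has the highest values against NC (1.28 in BSG) and LENG8 the lowest (-1.79 in BSG); no gene is marked in M-BSG against BSG.

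LENG8, named for its place in the leukocyte receptor cluster, stood far lower in every treated library. It had 35.1, 42.8 and 46.4 CPM in M-BSG-Hot, 53.3, 56.1 and 54.9 CPM in M-BSG and 32.8, 40.9 and 41.1 CPM in BSG, against 135, 134 and 129 CPM in NC. No treated library reached the lowest NC library, and M-BSG did not overlap M-BSG-Hot or BSG. As a description, the fold was 0.312 in M-BSG-Hot (log2 -1.68), 0.413 in M-BSG (log2 -1.28) and 0.288 in BSG (log2 -1.79), each against NC. In bulk RNA, fewer cells carrying a transcript and less of it per cell cannot be told apart. The antisense gene LENG8-AS1 overlaps LENG8, and whether counting used strand is not given in the sources used here, so reads of the pair cannot be told apart. LENG8-AS1 had 23, 20 and 28 counts in M-BSG-Hot, 36, 32 and 36 in M-BSG and 15, 19 and 29 in BSG, against 80, 107 and 68 in NC, far fewer than LENG8 itself in every library. LENG9, also on the other strand, had 108 to 164 counts over the 12 libraries.

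Between treated groups, LENG8 was tested. M-BSG exceeded BSG in all 3 libraries (log2 fold change 0.52 ± 0.11 (SE), 95% interval 0.29 to 0.75, edgeR adjusted p = 0.115), and M-BSG-Hot stood below M-BSG in all 3 (-0.40 ± 0.11, 95% interval -0.63 to -0.17, edgeR adjusted p = 0.147). Neither difference passed the threshold, although both intervals exclude 0. Of 22 alternative settings, 18 left LENG8 uncalled in M-BSG against BSG and 4 called it. For M-BSG-Hot against M-BSG, 19 left it uncalled and 3 called it. Limma and the fit of each pair of groups alone called neither difference. With DESeq2 both passed (DESeq2 adjusted p = 0.00235 for M-BSG against BSG and 0.0287 for M-BSG-Hot against M-BSG). Leaving out M-BSG-Hot 1, edgeR called LENG8 higher in M-BSG than in BSG (adjusted p = 0.0429), and leaving out BSG 1 it called LENG8 lower in M-BSG-Hot than in M-BSG (adjusted p = 0.0458). Without BSG 1, M-BSG 1 and M-BSG-Hot 3, edgeR called both (adjusted p = 0.0153 and 0.0012).

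**Figure D3:**
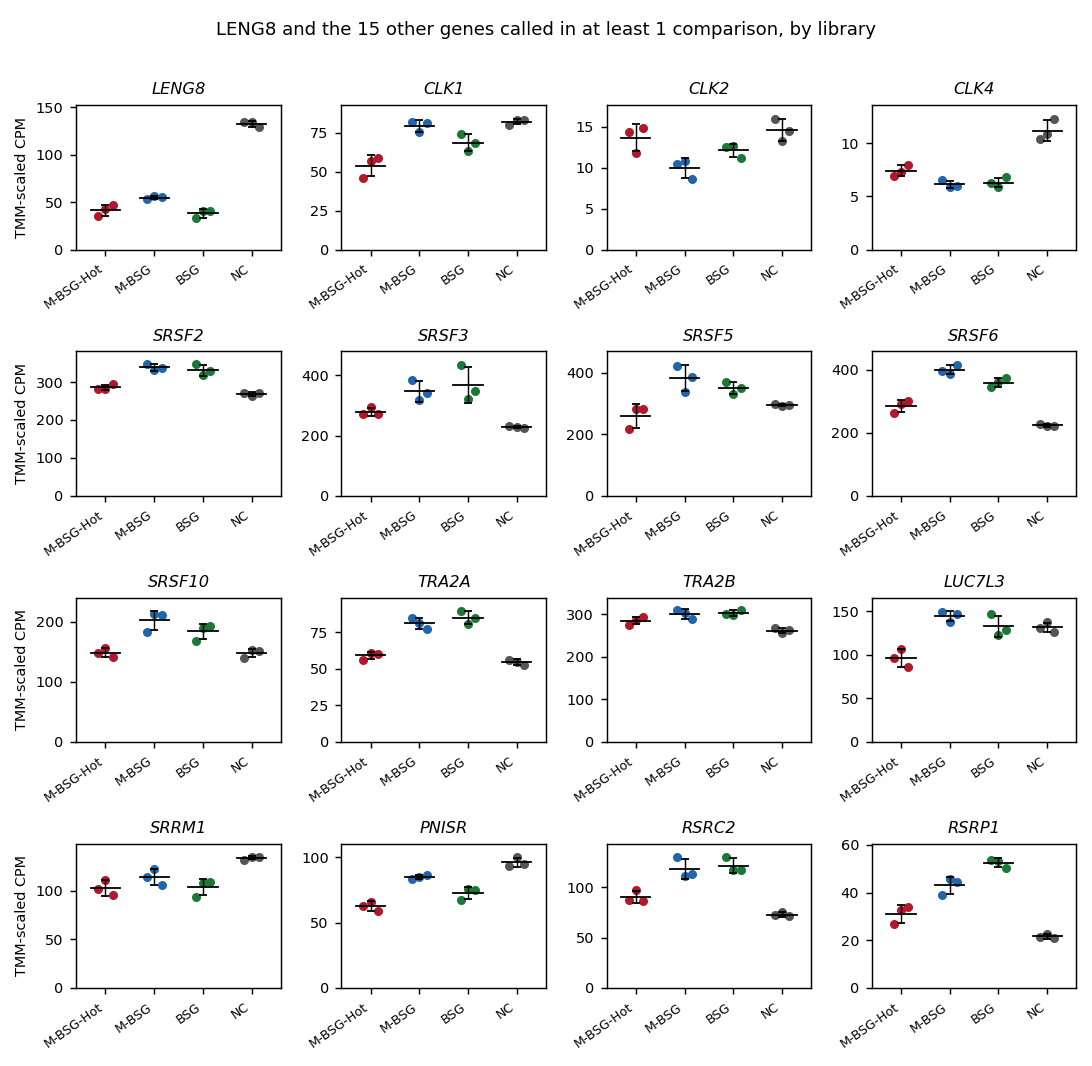
TMM-scaled CPM of LENG8 and the 15 other genes called in at least 1 comparison; points are libraries, the horizontal bar is the group mean and the error bar the SD (n = 3), with groups from M-BSG-Hot on the left to NC on the right and every axis from 0. LENG8 and CLK4 have all treated points below NC, while SRSF6, RSRC2 and RSRP1 have all treated points above NC.

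The 250 bases before the annotated start are shown for LENG8 here, and for CLK4, SRSF6, RSRC2 and RSRP1 where those genes are described, LENG8 because the list was built around it and the other 4 because edgeR gave them the same call against NC in each treated group. Sequences are from RefSeq on GRCh38.p14, which is not known to be the build behind the counts, and are printed 5′ to 3′ in the direction of transcription. Capitals mark exact matches on either strand to any of 6 motifs: the cyclic AMP response element TGACGTCA, the AP-1 site TGANTCA, a heat shock element core GAANNTTC, the GC box GGGCGG, the CCAAT box and the ETS site CCGGAAGT. LENG8 has a pair of listed starts, at chr19:54448949-54449198, plus strand, and at chr19:54449407-54449656, plus strand.
LENG8 first start: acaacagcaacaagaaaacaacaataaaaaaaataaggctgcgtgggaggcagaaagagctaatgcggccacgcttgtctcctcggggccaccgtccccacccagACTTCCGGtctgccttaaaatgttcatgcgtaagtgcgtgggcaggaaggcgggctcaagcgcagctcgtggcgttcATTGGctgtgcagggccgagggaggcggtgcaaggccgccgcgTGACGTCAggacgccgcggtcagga
LENG8 second start: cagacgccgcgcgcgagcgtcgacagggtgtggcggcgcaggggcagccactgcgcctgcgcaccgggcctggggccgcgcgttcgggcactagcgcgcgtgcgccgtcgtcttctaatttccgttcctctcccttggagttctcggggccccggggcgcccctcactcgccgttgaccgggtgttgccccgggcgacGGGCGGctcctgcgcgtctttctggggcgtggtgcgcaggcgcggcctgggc
The first window holds an ETS match 145 bases, a CCAAT match 68 bases and a cyclic AMP response element match 25 bases before the start, and the second holds a GC box 52 bases before it. Of all 35116 windows of this length, 1.65% hold the cyclic AMP response element, 6.57% the AP-1 site, 5.78% the heat shock core, 42.6% the GC box, 32% the CCAAT box and 3.42% the ETS site. Of the 46 windows of the 29 genes with an entry, 1 holds the cyclic AMP response element, 1 the AP-1 site, 2 the heat shock core, 22 the GC box, 12 the CCAAT box and 4 the ETS site. No matches overlap in the windows shown, and a match is a run of letters, with no measurement of binding here.

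Among the CLK kinases, CLK4 was called lower in every treated group, CLK1 in M-BSG-Hot and CLK2 in M-BSG, while CLK3 was not called in any comparison. All 4 are dual-specificity kinases that phosphorylate SR proteins in the nucleus, and CLK1 and CLK4 are known for transcripts that keep introns and stay in the nucleus. CLK4 had 6.96, 7.35 and 8.01 CPM in M-BSG-Hot, 6.54, 5.92 and 6.03 CPM in M-BSG, 6.24, 5.91 and 6.80 CPM in BSG, against 10.4, 10.9 and 12.3 CPM in NC. Every treated library lay below the lowest NC library. Log2 fold changes were -0.59 ± 0.11 (SE) in M-BSG-Hot (edgeR adjusted p = 0.00662), -0.86 ± 0.11 in M-BSG (edgeR adjusted p = 0.000295) and -0.83 ± 0.11 in BSG (edgeR adjusted p = 0.000313). These calls were kept in all 22 alternatives. The window before the CLK4 start (chr5:178627051-178627300, minus strand) holds GC boxes 184 and 100 bases before it.
CLK4: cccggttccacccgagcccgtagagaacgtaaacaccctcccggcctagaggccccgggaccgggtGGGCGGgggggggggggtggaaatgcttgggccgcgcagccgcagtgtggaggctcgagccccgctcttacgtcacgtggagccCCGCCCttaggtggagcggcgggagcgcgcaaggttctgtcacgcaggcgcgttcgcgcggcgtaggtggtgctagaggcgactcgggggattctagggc

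CLK1 was lower in M-BSG-Hot than in both M-BSG and NC. It had 45.9, 56.8 and 58.6 CPM in M-BSG-Hot, 82.0, 75.2 and 81.0 CPM in M-BSG, 73.8, 63.2 and 68.5 CPM in BSG, against 80.0, 83.2 and 83.0 CPM in NC. All M-BSG-Hot libraries lay below all others, M-BSG overlapped NC, and BSG lay between. Against NC the log2 fold change in M-BSG-Hot was -0.61 ± 0.094 (edgeR adjusted p = 0.00155), with -0.047 ± 0.094 in M-BSG (edgeR adjusted p = 0.863) and -0.26 ± 0.094 in BSG (edgeR adjusted p = 0.0856), neither called. CLK2 had 14.3, 11.8 and 14.9 CPM in M-BSG-Hot, 10.4, 10.8 and 8.56 CPM in M-BSG, 12.5, 12.6 and 11.2 CPM in BSG, against 15.9, 13.2 and 14.5 CPM in NC. M-BSG lay below all NC libraries and below all M-BSG-Hot libraries. Its call in M-BSG against NC (log2 fold change -0.55 ± 0.12 (SE), edgeR adjusted p = 0.0153) was lost without NC 1, NC 3 or M-BSG 3 (adjusted p = 0.0817, 0.0569 and 0.0829). CLK2 shares its locus with HCN3 on the other strand. CLK3 averaged 33.6 ± 3.3 FPKM in M-BSG-Hot, 34.1 ± 1.7 in M-BSG and 34.3 ± 3.2 in BSG, against 36.5 ± 1.1 FPKM in NC (SD, n = 3 each), and its log2 fold changes against NC lay between -0.049 and -0.0093.

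The other kinases of SR proteins were not called in any comparison. SRPK1 and SRPK2 phosphorylate SR proteins in the cytoplasm and so govern their import, and DYRK1A is a nuclear kinase that also acts on splicing factors. Against NC, SRPK1 had log2 fold changes of -0.11 in M-BSG-Hot (95% interval -0.29 to 0.062), 0.024 in M-BSG (-0.15 to 0.20) and -0.095 in BSG (-0.27 to 0.081). For SRPK2 they were -0.079 (-0.37 to 0.21), 0.035 (-0.25 to 0.32) and -0.15 (-0.44 to 0.14) in the same order of groups. For DYRK1A they were -0.12 (-0.41 to 0.16), -0.069 (-0.36 to 0.22) and -0.23 (-0.52 to 0.064). Every one of these intervals includes 0, and all 3 genes overlapped NC in each treated group.

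SRSF6, SRSF3, SRSF2 and SRSF10 were higher in M-BSG and in BSG than in NC, and SRSF6 also in M-BSG-Hot. Of the 12 SR proteins, edgeR, DESeq2 and limma called none lower against NC. At an unadjusted p under 0.05 edgeR had 2 lower in M-BSG-Hot, 0 in M-BSG and 0 in BSG. Of all 15407 tested genes, 1620, 1585 and 2428 were lower at that threshold, in the same order of groups. SRSF6, an SR protein with a pair of RNA-recognition domains that binds exonic enhancers, had 264, 289.5 and 302 CPM in M-BSG-Hot, 397, 387 and 414 CPM in M-BSG, 343.5, 361 and 373 CPM in BSG, against 229, 221 and 222 CPM in NC. Each treated library lay above NC, with M-BSG highest and no overlap between any pair of groups. Log2 fold changes were 0.35 ± 0.07 in M-BSG-Hot (edgeR adjusted p = 0.0101), 0.84 ± 0.071 in M-BSG (edgeR adjusted p = 7.38e-06) and 0.68 ± 0.071 in BSG (edgeR adjusted p = 2.73e-05), each against NC. The M-BSG-Hot call was lost without NC 2 or NC 3 (adjusted p = 0.0603 and 0.0571). The SRSF6 window (chr20:43457646-43457895, plus strand) holds GC boxes 49 and 37 bases before the start.
SRSF6: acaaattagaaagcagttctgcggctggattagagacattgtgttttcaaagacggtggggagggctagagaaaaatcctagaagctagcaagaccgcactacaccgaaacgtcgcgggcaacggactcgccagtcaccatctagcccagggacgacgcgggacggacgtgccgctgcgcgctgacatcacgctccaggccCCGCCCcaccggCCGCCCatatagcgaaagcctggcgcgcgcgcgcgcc

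SRSF3, the smallest SR protein and an adapter for mRNA export, had 271, 293 and 271 CPM in M-BSG-Hot, 385, 318 and 339.8 CPM in M-BSG, 434, 322 and 347 CPM in BSG, against 232, 227 and 225 CPM in NC. All treated libraries lay above NC, and BSG 1 was the highest of the 12. The log2 fold change was 0.61 ± 0.10 in M-BSG (edgeR adjusted p = 0.00255) and 0.69 ± 0.10 in BSG (edgeR adjusted p = 0.000715), and the M-BSG-Hot value of 0.29 ± 0.10 was not called (edgeR adjusted p = 0.158). SRSF2, which also takes part in transcriptional pause release, had 283, 283 and 295 CPM in M-BSG-Hot, 348.5, 331 and 337 CPM in M-BSG, 347, 317 and 328 CPM in BSG, against 272, 262.5 and 271 CPM in NC. M-BSG and BSG exceeded NC by 0.33 ± 0.064 (edgeR adjusted p = 0.00553) and 0.30 ± 0.064 (edgeR adjusted p = 0.00782) on the log2 scale, and the BSG call was lost without NC 2 (adjusted p = 0.0522). SRSF2 overlaps MFSD11 on the other strand, and SRSF8 is a near copy of SRSF2, so reads could be split or shared between them. SRSF8 itself stayed within -0.0041 to 0.032 of NC on the log2 scale in the 3 treated groups and was not called.

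SRSF10, which represses splicing when it loses its phosphates under heat shock, had 148, 157 and 141 CPM in M-BSG-Hot, 183.5, 213 and 210.4 CPM in M-BSG, 169, 190 and 192 CPM in BSG, against 139, 152 and 152 CPM in NC. M-BSG and BSG lay above NC in every library, and M-BSG-Hot overlapped NC. The log2 fold change was 0.45 ± 0.083 in M-BSG (edgeR adjusted p = 0.004) and 0.31 ± 0.083 in BSG (edgeR adjusted p = 0.026), with 0.0072 ± 0.083 in M-BSG-Hot (edgeR adjusted p = 0.98). The BSG call was lost in 6 of the 22 alternatives, among them the fits without NC 1, NC 2, NC 3, BSG 2 or BSG 3 (adjusted p = 0.099, 0.0686, 0.0716, 0.0549 and 0.0804), and the change was larger with the gene length trend removed (log2 0.54). SRSF5, an SR protein known to respond to growth signals, was not called against NC in any group by edgeR, at -0.18 ± 0.11 in M-BSG-Hot, 0.37 ± 0.11 in M-BSG (edgeR adjusted p = 0.0521) and 0.25 ± 0.11 in BSG. In M-BSG it lay just over the threshold and was called higher in 10 of the 22 alternatives, among them DESeq2 (DESeq2 adjusted p = 0.0104), edgeR with the size factors of DESeq2 (adjusted p = 0.0406) and the fit of M-BSG and NC alone (adjusted p = 0.0244). The remaining SR proteins, SRSF1, SRSF4, SRSF7, SRSF9, SRSF11 and SRSF12, were called in no comparison by edgeR, with log2 fold changes against NC between -0.21 and 0.21. DESeq2 called SRSF7 higher in BSG (log2 fold change 0.22, DESeq2 adjusted p = 0.0216), as did edgeR without BSG 2 (adjusted p = 0.0358). SRSF1, the founding member of the family, lay below NC in all 3 M-BSG-Hot libraries (-0.18 ± 0.074, edgeR adjusted p = 0.21).

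Within the summed FPKM of the 12 SR proteins, SRSF9 took 22.7% ± 1.4 in M-BSG-Hot, 18.4% ± 0.51 in M-BSG and 20.5% ± 1.8 in BSG, against 21.4% ± 0.66 in NC (SD, n = 3 each). SRSF6 took 8.87% ± 0.26 in M-BSG-Hot, 10.9% ± 0.47 in M-BSG and 9.77% ± 0.91 in BSG, against 7.30% ± 0.068 in NC. SRSF1 took 9.66% ± 0.93 in M-BSG-Hot, 9.07% ± 0.80 in M-BSG and 8.98% ± 1.1 in BSG, against 11.5% ± 0.40 in NC. The mix of SR protein transcripts thus held a larger part of SRSF6 and a smaller part of SRSF1 on average in each treated group than in NC. These shares of a sum are descriptions and were not tested.

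TRA2A and TRA2B, which bind purine-rich exonic enhancers and act beside the SR proteins, were higher in BSG, and TRA2A also in M-BSG. TRA2A had 56.1, 60.9 and 60.3 CPM in M-BSG-Hot, 84.7, 80.9 and 77.3 CPM in M-BSG, 89.5, 80.4 and 84.9 CPM in BSG, against 56.1, 54.8 and 52.3 CPM in NC. M-BSG and BSG did not overlap NC, and M-BSG-Hot did. Log2 fold changes were 0.57 ± 0.073 in M-BSG (edgeR adjusted p = 0.000227) and 0.64 ± 0.073 in BSG (edgeR adjusted p = 6.43e-05), with 0.12 ± 0.073 in M-BSG-Hot (edgeR adjusted p = 0.44). TRA2B had 275, 287 and 292 CPM in M-BSG-Hot, 309.6, 303 and 288 CPM in M-BSG, 299.7, 298 and 309.6 CPM in BSG, against 268, 254.5 and 262 CPM in NC. Every treated library lay above NC, but the call in BSG (log2 fold change 0.21 ± 0.063 (SE), edgeR adjusted p = 0.0471) was lost in 14 of the 22 alternatives, among them each fit without 1 NC library (adjusted p = 0.0909, 0.173 and 0.149) and each without 1 BSG library (0.0729, 0.058 and 0.111). It was also lost without M-BSG 2, M-BSG 3, M-BSG-Hot 1 or M-BSG-Hot 2 (adjusted p = 0.0597, 0.0658, 0.0508 and 0.0529), and with library size scaling alone the change was 0.13 (adjusted p = 0.153).

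Of the LUC7-like proteins, which act with the U1 particle at the 5′ splice site, LUC7L3 was lower in M-BSG-Hot. It had 96.0, 106 and 86.3 CPM in M-BSG-Hot, 149, 138 and 146 CPM in M-BSG, 146, 123 and 128.5 CPM in BSG, against 131, 137 and 126 CPM in NC. All M-BSG-Hot libraries lay below all others, and BSG overlapped NC. The log2 fold change against NC was -0.45 ± 0.09 in M-BSG-Hot (edgeR adjusted p = 0.00905), and the call was lost without NC 2 or M-BSG-Hot 3 (adjusted p = 0.0571 and 0.0543). In M-BSG and BSG the values were 0.14 ± 0.089 and 0.012 ± 0.089, not called. LUC7L and LUC7L2 were not called in any comparison, and their log2 fold changes against NC lay between -0.074 and 0.20.

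Among the SR-related proteins, RSRP1 and RSRC2 were higher in every treated group, PNISR and SRRM1 were lower in M-BSG-Hot and in BSG, and SRRM2, SON and RBM39 were not called by edgeR. RSRP1, a small protein rich in arginine and serine, had 26.7, 32.6 and 33.8 CPM in M-BSG-Hot, 39.0, 45.8 and 44.3 CPM in M-BSG, 53.8, 53.4 and 50.5 CPM in BSG, against 21.2, 22.7 and 21.0 CPM in NC. Every treated library lay above NC, with BSG highest and no overlap between groups. Log2 fold changes against NC were 0.52 ± 0.098 in M-BSG-Hot (edgeR adjusted p = 0.0061), 0.99 ± 0.098 in M-BSG (edgeR adjusted p = 2.51e-05) and 1.28 ± 0.098 in BSG (edgeR adjusted p = 1.39e-06), a fold of 2.43 in BSG. RSRP1 overlaps RHD and TMEM50A on the other strand. RSRC2, an arginine- and serine-rich coiled-coil protein, had 87.4, 97.8 and 86.7 CPM in M-BSG-Hot, 129.7, 112 and 114 CPM in M-BSG, 129.8, 117 and 117 CPM in BSG, against 72.0, 75.6 and 71.3 CPM in NC. All treated libraries lay above NC. Its log2 fold changes were 0.31 ± 0.082 in M-BSG-Hot (edgeR adjusted p = 0.0436), 0.70 ± 0.082 in M-BSG (edgeR adjusted p = 0.000118) and 0.73 ± 0.082 in BSG (edgeR adjusted p = 6.02e-05). The M-BSG-Hot call of RSRC2 was lost in 12 of the 22 alternatives, among them the fits without NC 1, NC 2 or NC 3 (adjusted p = 0.142, 0.108 and 0.178), without M-BSG-Hot 1, 2 or 3 (0.0755, 0.152 and 0.0643) and without BSG 2, BSG 3 or M-BSG 3 (0.0535, 0.0582 and 0.0644). The windows before the starts of RSRP1 (chr1:25338255-25338504, minus strand) and RSRC2 (chr12:122526937-122527186, minus strand) hold 3 GC boxes each, and that of RSRC2 also a CCAAT match 127 bases before the start.
RSRP1: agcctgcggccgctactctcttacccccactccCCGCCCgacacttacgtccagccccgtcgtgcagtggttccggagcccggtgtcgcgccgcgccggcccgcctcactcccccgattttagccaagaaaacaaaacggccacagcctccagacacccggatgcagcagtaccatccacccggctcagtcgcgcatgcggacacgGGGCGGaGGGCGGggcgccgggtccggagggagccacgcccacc
RSRC2: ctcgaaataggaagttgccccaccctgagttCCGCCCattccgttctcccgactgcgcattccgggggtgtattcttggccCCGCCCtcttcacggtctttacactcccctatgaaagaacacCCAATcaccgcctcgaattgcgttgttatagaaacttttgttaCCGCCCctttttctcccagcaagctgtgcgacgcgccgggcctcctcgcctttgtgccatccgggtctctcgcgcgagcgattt

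PNISR, a serine- and arginine-rich protein bound to pinin, had 62.9, 66.0 and 58.7 CPM in M-BSG-Hot, 83.1, 84.6 and 86.3 CPM in M-BSG, 67.1, 75.9 and 74.6 CPM in BSG, against 93.1, 100 and 94.7 CPM in NC. Every treated library lay below NC. It fell in M-BSG-Hot (log2 fold change -0.62 ± 0.074 (SE), edgeR adjusted p = 0.000191) and in BSG (-0.40 ± 0.074, edgeR adjusted p = 0.00303), and the M-BSG value of -0.18 ± 0.074 was not called (edgeR adjusted p = 0.199). With the gene length trend removed, the PNISR change in BSG was -0.22 (adjusted p = 0.0386). SRRM1, a coactivator that bridges SR proteins and the spliceosome, had 102, 111 and 95.4 CPM in M-BSG-Hot, 114, 123 and 106 CPM in M-BSG, 93.9, 108 and 109 CPM in BSG, against 132, 135 and 135 CPM in NC. All treated libraries again lay below NC. Its log2 fold change was -0.38 ± 0.085 in M-BSG-Hot (edgeR adjusted p = 0.0191), -0.23 ± 0.085 in M-BSG (edgeR adjusted p = 0.154) and -0.37 ± 0.085 in BSG (edgeR adjusted p = 0.0133). The BSG call was lost without NC 2, NC 3 or BSG 1 (adjusted p = 0.0538, 0.0554 and 0.0527), and the M-BSG-Hot call without NC 1, NC 2, NC 3, M-BSG-Hot 1 or M-BSG-Hot 3 (0.0596, 0.0801, 0.0805, 0.0656 and 0.0944).

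SRRM2 and SON, large scaffold proteins of nuclear speckles, varied widely within the treated groups. SRRM2 had 731, 629 and 578 CPM in M-BSG-Hot, 552, 844 and 768 CPM in M-BSG, 395, 677 and 628 CPM in BSG, against 632, 659.9 and 666 CPM in NC. SON had 306, 268 and 234 CPM in M-BSG-Hot, 228, 340.2 and 299 CPM in M-BSG, 187, 271 and 263 CPM in BSG, against 244, 280.3 and 291 CPM in NC. In both genes BSG 1 and M-BSG 1 were the lowest libraries of their groups, and M-BSG-Hot 3 the lowest of M-BSG-Hot. These are the libraries in which long genes stood low and ribosomal protein counts high (above), and the part of either in the SRRM2 and SON values was not tested. Log2 fold changes against NC were between -0.20 and 0.14 for SRRM2 and between -0.18 and 0.088 for SON, with standard errors of 0.18 and 0.16, and every 95% interval included 0. Without BSG 1, M-BSG 1 and M-BSG-Hot 3, edgeR called SRRM2 higher in M-BSG than in NC (0.30, adjusted p = 0.00597) and RBM39 likewise (0.18, adjusted p = 0.0449). RBM39, a U2AF-related splicing factor, stood at 0.19 ± 0.062 in M-BSG (edgeR adjusted p = 0.106), above NC in all 3 libraries, and was not called by edgeR. DESeq2 called RBM39 higher in M-BSG than in NC (log2 fold change 0.20, DESeq2 adjusted p = 0.00351) and lower in M-BSG-Hot than in M-BSG (-0.18, DESeq2 adjusted p = 0.0309). With the gene length trend removed, edgeR called it higher in BSG than in NC (0.26, adjusted p = 0.0354).

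M-BSG-Hot differed from M-BSG in 8 of the 32 genes, all lower, which is 25% of them where 0.597% of all tested genes were called lower, and none was called higher, where 0.0974% were. By role they were CLK1, 3 SR proteins (SRSF5, SRSF6 and SRSF10), TRA2A, LUC7L3, and the SR-related PNISR and RSRP1. LUC7L3 changed by -0.59 ± 0.09, edgeR adjusted p = 0.00831, CLK1 by -0.56 ± 0.094, edgeR adjusted p = 0.0147 and SRSF5 by -0.56 ± 0.11, edgeR adjusted p = 0.0287 on the log2 scale (± SE). SRSF5 had 216, 283 and 282 CPM in M-BSG-Hot, 423, 339 and 386 CPM in M-BSG, 370.3, 331.5 and 351 CPM in BSG, against 299.5, 292.5 and 294 CPM in NC. All M-BSG-Hot libraries of SRSF5 lay below the other 9 libraries. SRSF6 changed by -0.49 ± 0.07, edgeR adjusted p = 0.00669, RSRP1 by -0.47 ± 0.096, edgeR adjusted p = 0.0418 and TRA2A by -0.45 ± 0.073, edgeR adjusted p = 0.0106. SRSF10 changed by -0.45 ± 0.083, edgeR adjusted p = 0.0287, and PNISR by -0.44 ± 0.074, edgeR adjusted p = 0.0155. Of the 22 alternatives, RSRP1 lost this call in 10, SRSF5 in 9, SRSF10 in 8 and PNISR in 5. CLK1 lost it in 3, and LUC7L3, SRSF6 and TRA2A in 2 each. In each of the 8 genes the M-BSG-Hot libraries lay below all M-BSG libraries. At an unadjusted p under 0.05, 15 of the 32 genes were lower, and CLK2 and CLK4 were higher. Of all 15407 tested genes, 835 were lower and 527 higher at that threshold. The list was drawn up with earlier results of these libraries known, so nothing is read from these shares.

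The median log2 fold change of the 32 genes in M-BSG-Hot against M-BSG was -0.155, against -0.00083 over all tested genes, and 16 of the 32 had all M-BSG-Hot libraries below all M-BSG libraries, where 7.5% of all genes did, and 3 had them above, where 6.28% did. RSRC2 just missed the threshold (-0.39 ± 0.082, edgeR adjusted p = 0.0506). CLK2 and CLK4 were the kinases with values above 0, at 0.46 ± 0.12 (95% interval 0.20 to 0.73, edgeR adjusted p = 0.156) and 0.27 ± 0.11 (95% interval 0.026 to 0.52, edgeR adjusted p = 0.497). DESeq2 called 12 genes lower and CLK2 higher, and limma 9 lower and 0 higher. Over all tested genes, DESeq2 called 229 lower and 47 higher, and limma 86 lower and 15 higher. The comparison shares the M-BSG libraries with M-BSG against NC, so these values are not independent of each other. For the same reason as above, nothing is read from the median of the list or from its counts. The 8 calls were made in the fit of all 4 groups: in a fit of M-BSG-Hot and M-BSG alone, none of the 32 genes was called (14 were lower and 1 higher at an unadjusted p under 0.05), and 7 of all genes were called lower in place of 92. Leaving out M-BSG 3 left only TRA2A called and leaving out M-BSG-Hot 1 left LUC7L3 and SRSF6, 5 genes were called without NC 2, NC 3 or M-BSG 2, and 10 without BSG 1.

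**Figure D4:**
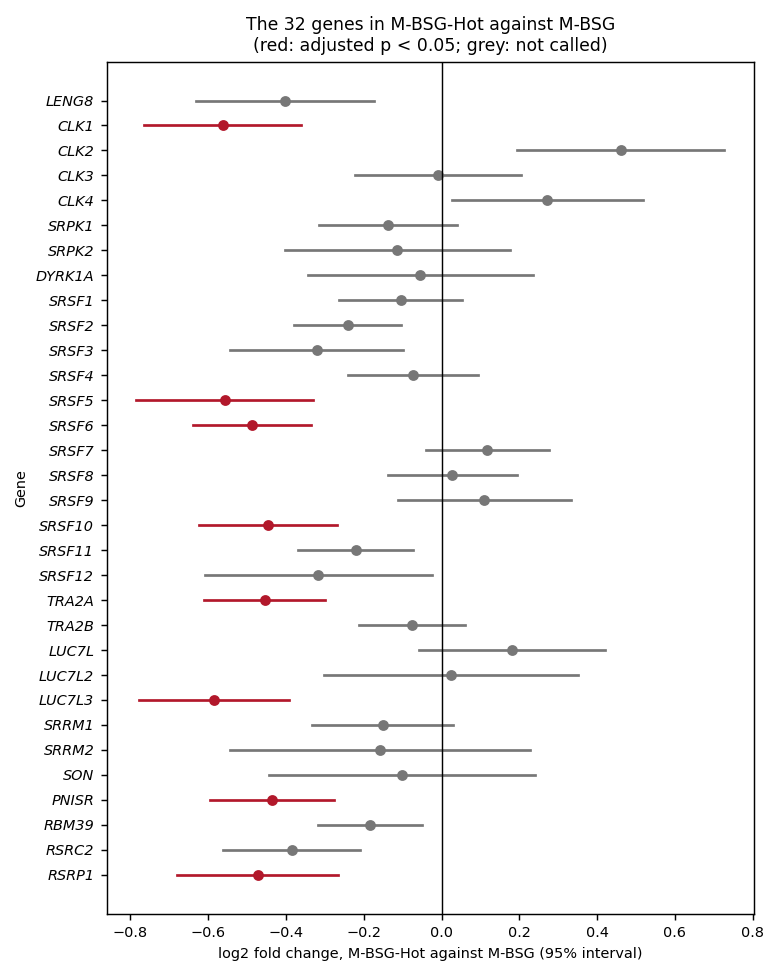
Log2 fold change of the 32 genes in M-BSG-Hot against M-BSG with its 95% interval; red points have edgeR adjusted p under 0.05 and grey points do not. All 8 red points lie left of 0, from -0.59 for LUC7L3 to -0.44 for PNISR, and CLK2 has the highest value at 0.46.

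M-BSG and BSG were not distinguished in any of the 32 genes, and 0.13% of all tested genes were called lower and 0% higher. At an unadjusted p under 0.05, 4 of the 32 genes were higher and 3 lower in edgeR, where 513 and 529 of all 15407 genes were. Of the 32, limma called none, and DESeq2 called LENG8 alone. Over all tested genes, limma called 1 higher and 27 lower, and DESeq2 13 higher and 37 lower. All M-BSG libraries lay above all BSG libraries in 7 of the 32 genes, where 4.08% of all genes did, and below them in 3, where 4.82% did. PNISR stood 0.22 ± 0.074 above BSG (95% interval 0.065 to 0.38) and RSRP1 at -0.29 ± 0.095 (95% interval -0.49 to -0.084), both with an edgeR adjusted p of 0.635 and without overlap of the libraries. For SRSF3 the 95% interval of the difference was -0.30 to 0.14, for TRA2A -0.22 to 0.087 and for RSRC2 -0.21 to 0.14 on the log2 scale, so differences of that size were not excluded.

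Other RNA-processing genes were read from 5 lists. The lists were chosen with earlier results of these data known, so nothing is read from their shares. In the core spliceosome list of 38 genes, which builds the catalytic particle, edgeR called none in M-BSG-Hot, 1 higher in M-BSG and 3 higher in BSG, each against NC. These were 2.63% of the list in M-BSG and 7.89% in BSG. Of all tested genes, 1.4% were called higher in M-BSG-Hot, 3.22% in M-BSG and 5.5% in BSG. In M-BSG-Hot, 2 were higher at an unadjusted p under 0.05, where 972 of all 15407 genes were. DESeq2 called U2AF2 alone there and limma called none. In M-BSG, DESeq2 called 2 higher and limma 1, and in BSG DESeq2 called 7 higher and limma 2. Over all tested genes, DESeq2 called 713 higher in M-BSG and 1469 in BSG, and limma 494 and 803. At an unadjusted p under 0.05, edgeR had 14 of the list higher and 3 lower in BSG, where 2274 and 2428 of all genes were. CDC5L was the gene that edgeR called in M-BSG (0.27 ± 0.069, edgeR adjusted p = 0.0283). In BSG edgeR called SNRPE, SNRPB and SNRNP40, with adjusted p of 0.0439, 0.0462 and 0.0482. These 4 spliceosome calls of edgeR were lost in 7 to 14 of the 22 alternatives, among them each fit without 1 NC library. SNRPE stood at 0.32 without BSG 1 (adjusted p = 0.168) and CDC5L at an adjusted p of 0.132 without NC 2. In the hnRNP list of 24 tested genes, whose products coat nascent transcripts, edgeR and limma called none in M-BSG-Hot and DESeq2 called HNRNPDL, with 3 higher at an unadjusted p under 0.05 in edgeR. With edgeR, HNRNPDL, HNRNPA1 and HNRNPH1 were higher in M-BSG and in BSG, 12.5% of the list in each. Of all tested genes, 3.22% and 5.5% were called higher there. DESeq2 called 5 of the list higher in M-BSG and 9 in BSG, and limma 3 in each. HNRNPDL had 373, 417.5 and 443 CPM in M-BSG-Hot, 537, 472 and 457 CPM in M-BSG, 602, 489.9 and 525 CPM in BSG, against 341, 338 and 330.2 CPM in NC. M-BSG and BSG exceeded NC by 0.54 ± 0.094, edgeR adjusted p = 0.00296, and 0.68 ± 0.094, edgeR adjusted p = 0.000343. HNRNPA1 and HNRNPH1 lost their M-BSG calls without any single NC library and without M-BSG 1 or M-BSG 3, with adjusted p up to 0.128 and 0.161, both without NC 3. HNRNPH1 also lost its M-BSG call without M-BSG 2 (0.108), and its BSG call without any single NC library or BSG 3 (adjusted p up to 0.0982).

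In the list of other SR-related and detained-intron genes, 38 were tested. In M-BSG-Hot 5 (13.2%) were lower and none higher, in M-BSG 4 (10.5%) lower and 1 (2.63%) higher, each against NC. In BSG 4 (10.5%) were lower and 2 (5.26%) higher than in NC. Of all tested genes, 3.51% were lower and 1.4% higher in M-BSG-Hot, 3.13% and 3.22% in M-BSG, and 6.22% and 5.5% in BSG. DESeq2 called 7 of the list lower and 1 higher in M-BSG-Hot, 4 lower and 7 higher in M-BSG, and 4 lower and 4 higher in BSG. Over all tested genes, DESeq2 called 764 lower and 397 higher in M-BSG-Hot, 703 and 713 in M-BSG, and 1341 and 1469 in BSG. CCNL2, a cyclin that partners the CDK11 kinases in splicing, had 111, 120.4 and 132 CPM in M-BSG-Hot, 150.3, 145 and 143 CPM in M-BSG, 110.4, 114 and 108 CPM in BSG, against 214, 211.5 and 206 CPM in NC. All treated libraries lay below NC, with log2 fold changes of -0.80 ± 0.073 in M-BSG-Hot, -0.53 ± 0.073 in M-BSG and -0.92 ± 0.074 in BSG (edgeR adjusted p = 1.85e-05, 0.000474 and 2.06e-06). Its relative CCNL1 had 95.1, 115 and 111 CPM in M-BSG-Hot, 163, 149 and 168 CPM in M-BSG, 141, 143 and 144 CPM in BSG, against 88.2, 89.7 and 88.0 CPM in NC. CCNL1 was higher in M-BSG (0.85 ± 0.08, edgeR adjusted p = 1.68e-05) and BSG (0.69 ± 0.08, edgeR adjusted p = 7.96e-05) and lower in M-BSG-Hot than in M-BSG (-0.58 ± 0.08, edgeR adjusted p = 0.00597). OGT, the O-GlcNAc transferase, whose own transcript is known for a detained intron, had 281, 313 and 272 CPM in M-BSG-Hot, 316, 411.5 and 399 CPM in M-BSG, 221, 306 and 310 CPM in BSG, against 557, 616 and 638 CPM in NC. Its treated libraries all lay below NC, by -1.06 ± 0.13, -0.68 ± 0.13 and -1.11 ± 0.13 in M-BSG-Hot, M-BSG and BSG on the log2 scale (edgeR adjusted p = 0.000212, 0.00511 and 8.26e-05). RBM5, an exon-choice regulator, was lower in M-BSG (-0.35 ± 0.063, edgeR adjusted p = 0.00339) and BSG (-0.37 ± 0.063, edgeR adjusted p = 0.0018), and PNN (pinin) was lower in M-BSG-Hot than in M-BSG (-0.45 ± 0.061, edgeR adjusted p = 0.00511) and in NC (-0.26 ± 0.061, edgeR adjusted p = 0.0255). The PNN call against NC was lost in 7 of the 22 alternatives, among them each fit without 1 NC library (adjusted p = 0.0674, 0.135 and 0.11) and each without 1 M-BSG-Hot library (0.0557, 0.0906 and 0.105). ZRANB2, a zinc-finger protein that binds 5′ splice sites, had 51.9, 70.2 and 56.9 CPM in M-BSG-Hot, 75.8, 62.5 and 71.8 CPM in M-BSG, 70.8, 71.6 and 72.5 CPM in BSG, against 90.2, 95.2 and 89.3 CPM in NC. Every treated library lay below NC, with log2 fold changes of -0.62 ± 0.10 in M-BSG-Hot, -0.39 ± 0.10 in M-BSG and -0.35 ± 0.10 in BSG (edgeR adjusted p = 0.00279, 0.0403 and 0.0417). The M-BSG-Hot call was kept in all 22 alternatives, while the M-BSG call was lost in 9 and the BSG call in 8. Each of the fits without NC 1, NC 2, NC 3, M-BSG 3 or M-BSG-Hot 3 lost both (adjusted p up to 0.153 for M-BSG and 0.143 for BSG). The M-BSG call was also lost without M-BSG 2, BSG 2 or BSG 3 (0.157, 0.0543 and 0.0582), and the BSG call without BSG 1, BSG 2 or BSG 3 (0.101, 0.0654 and 0.0813). ARGLU1, an arginine- and glutamate-rich splicing regulator, was lower in M-BSG-Hot than in NC (-0.37 ± 0.082, edgeR adjusted p = 0.018), and the call was lost without NC 2, NC 3, M-BSG-Hot 1 or M-BSG-Hot 3 (adjusted p = 0.0846, 0.0792, 0.0866 and 0.0688). In M-BSG-Hot against M-BSG, PNN and CCNL1 were the 2 genes of this list (5.26%) called lower and none was called higher. Of all tested genes, 0.597% were called lower there and 0.0974% higher. DESeq2 called 8 of the list lower and 0 higher in that comparison, where 229 and 47 of all genes were. The PNN and CCNL1 calls were lost in the fit of these groups alone (adjusted p = 0.0627 each).

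**Figure D5:**
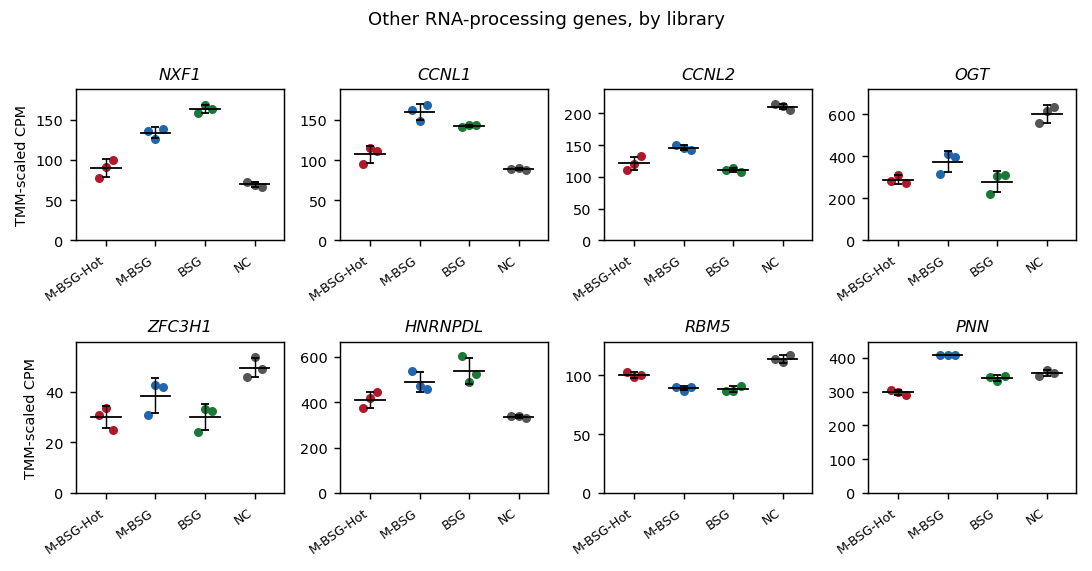
TMM-scaled CPM of 8 other RNA-processing genes; points are libraries, the bar is the group mean and the error bar the SD (n = 3), with M-BSG-Hot on the left, NC on the right and every axis from 0. NXF1 and CCNL1 have their highest points in M-BSG and BSG, while CCNL2, OGT and ZFC3H1 have every treated point below NC.

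Of 24 tested genes of nuclear export and nuclear RNA decay, 2 (8.33%) were higher and 1 (4.17%) lower in M-BSG-Hot than in NC. Against NC, 3 (12.5%) were higher in M-BSG, and 4 (16.7%) higher and 1 (4.17%) lower in BSG. Of all tested genes, 1.4% were higher and 3.51% lower in M-BSG-Hot, 3.22% and 3.13% in M-BSG, and 5.5% and 6.22% in BSG. DESeq2 called 2 of the list higher and 1 lower in M-BSG-Hot, 4 and 0 in M-BSG, and 6 and 1 in BSG. NXF1, the main mRNA export receptor, a gene known for a transcript that keeps an intron, had 77.8, 91.2 and 99.7 CPM in M-BSG-Hot, 136, 126 and 139 CPM in M-BSG, 158, 168.5 and 163 CPM in BSG, against 72.6, 69.2 and 66.1 CPM in NC. M-BSG and BSG lay far above NC and M-BSG-Hot between. Log2 fold changes against NC were 0.37 ± 0.088 in M-BSG-Hot, 0.95 ± 0.089 in M-BSG and 1.24 ± 0.089 in BSG (edgeR adjusted p = 0.027, 1.65e-05 and 8.69e-07), and M-BSG-Hot was lower than M-BSG (-0.58 ± 0.088, edgeR adjusted p = 0.00831). The M-BSG-Hot call against NC was lost without NC 1, NC 2, NC 3, M-BSG-Hot 2 or M-BSG-Hot 3 (adjusted p = 0.0568, 0.107, 0.138, 0.075 and 0.0988), and with scaling by library size alone (0.0652). The call against M-BSG was lost without M-BSG 3 (0.0667) and in the fit of M-BSG-Hot and M-BSG alone (0.0696). DDX39A, an RNA helicase of mRNA export with a near copy that could share its reads, had 98.5, 84.8 and 95.8 CPM in M-BSG-Hot, 96.8, 86.4 and 89.5 CPM in M-BSG, 100.4, 91.7 and 87.2 CPM in BSG, against 76.3, 69.5 and 71.2 CPM in NC. Every treated library lay above NC, with log2 fold changes of 0.36 ± 0.084 in M-BSG-Hot, 0.33 ± 0.084 in M-BSG and 0.36 ± 0.084 in BSG (edgeR adjusted p = 0.0222, 0.0308 and 0.013). All 3 calls were lost without NC 2 (adjusted p = 0.118, 0.142 and 0.0704) and without NC 3 (0.101, 0.126 and 0.062). The M-BSG-Hot call was also lost without M-BSG-Hot 1 or M-BSG-Hot 3 (0.0925 and 0.0765), and the M-BSG call without NC 1, M-BSG 1 or M-BSG 3 (0.0566, 0.0929 and 0.0836). ZFC3H1, a scaffold that hands nuclear RNA to the exosome, was lower in M-BSG-Hot (-0.73 ± 0.15, edgeR adjusted p = 0.0121) and in BSG (-0.73 ± 0.15, edgeR adjusted p = 0.007), and its M-BSG-Hot call was lost without NC 2 or M-BSG-Hot 3 (adjusted p = 0.0664 and 0.0641). ENY2, a TREX-2 subunit, was higher in M-BSG (0.50 ± 0.11, edgeR adjusted p = 0.0148) and BSG (0.58 ± 0.11, edgeR adjusted p = 0.00403), where the M-BSG call was lost without NC 2 or NC 3 (adjusted p = 0.0709 and 0.0675). Of the 15 genes of nonsense-mediated decay and the exon junction complex, edgeR, DESeq2 and limma called none in M-BSG-Hot or M-BSG against NC. At an unadjusted p under 0.05 in edgeR, 1 was higher in M-BSG-Hot, where 972 of all 15407 genes were. In M-BSG 1 was higher and 1 lower, where 1241 and 1585 of all genes were. In BSG, EIF4A3 was higher (0.36 ± 0.10, edgeR adjusted p = 0.0392) and UPF1 lower (-0.35 ± 0.10, edgeR adjusted p = 0.0414). Each was 6.67% of the list, where 5.5% of all genes were called higher and 6.22% lower. Both calls were lost without M-BSG 3 or BSG 3, without any single NC library (adjusted p from 0.0718 to 0.143 and from 0.0954 to 0.118) and without BSG 1 (0.126 and 0.141), and that of UPF1 also without M-BSG-Hot 2 or M-BSG-Hot 3 (0.0549 and 0.0511). DESeq2 called 3 genes of this list higher and 1 lower in BSG, where 1469 and 1341 of all genes were.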

How the data were processed

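Libraries of 12 samples of 143B cells were sequenced; the labels' protocols name a SMARTER mRNA-Seq kit. The deposited counts are whole numbers per gene symbol, with no normalization by the authors. The deposited FPKM are those counts divided by a gene length and the summed counts: 100% of values above 0 match within a relative tolerance of 1e-06. An aligner, counter, annotation or strand setting was not given in the sources used here, and strand matters for the overlapping genes named above. GRCm38 and mm10, mouse assemblies, stand in the submitters' processing notes although the symbols are human, so the build is unresolved and no coordinates of the counted genes are given.

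The counts were fitted with edgeR 4.0.16 in R 4.3.3: TMM factors of 0.951 to 1.05, the filterByExpr filter at a minimum count of 10, and 1 quasi-likelihood fit to the 12 libraries together, each group with its own mean. Tests were two-sided, with Benjamini-Hochberg adjustment over 15407 genes within each of 5 comparisons. The SE is the absolute log2 fold change over the square root of F. With 3 libraries a group, an exact permutation test of 1 gene cannot go below p = 0.1 and was not used. DESeq2 1.42.0 and limma 3.58.1 were alternatives, and the statistics were checked on simulated counts. Depth was 34434993 to 38163152 counts, so 3 counts are 0.0786 to 0.0871 CPM. Promoters and transcript classes came from RefSeq GRCh38.p14 (29 of 32 symbols matched; SRSF2, TRA2A and RBM39 have no entry) and GENCODE 29.

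The genes and the lists were chosen with earlier results of these data known. Named are LENG8, every listed gene called at least once, the 3 most abundant by FPKM, and at most 4 genes per other list and comparison with the smallest adjusted p. ZRANB2 and PNN are also given in comparisons where they were called outside those 4. HNRNPH2 and SRPK3 did not pass the filter, and DDX39B is not among the gene symbols of the count tables.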

Additional observations from a re-analysis of the deposited data

How the results depend on the processing

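Of 36 calls of the listed genes (LENG8 against NC left out), 19 held in all 22 alternatives, 17 were lost in at least 1 and 0 changed sign. For M-BSG against BSG, 1 gene (LENG8) was called higher in place of 0 with DESeq2, with no count filter, and without M-BSG-Hot 3, M-BSG 1 and BSG 1 at once. For M-BSG-Hot against M-BSG, DESeq2 called 1 gene higher in place of 0, and the fit of these groups alone called 0 lower in place of 8. The counts lower against NC that follow include LENG8. Leaving out 1 library at a time gave 5 to 8 genes higher and 3 to 5 lower in BSG against NC, 7 to 8 higher and 2 to 3 lower in M-BSG against NC, and 1 to 4 higher and 4 to 6 lower in M-BSG-Hot against NC. The same gave 0 to 1 higher and 0 to 0 lower in M-BSG against BSG, and 0 to 0 higher and 1 to 10 lower in M-BSG-Hot against M-BSG. The lowest counts came without NC 2 for BSG (5), without NC 2 or NC 3 for M-BSG-Hot against NC (1 higher), and without M-BSG 3 for M-BSG-Hot against M-BSG (1). Over all tested genes, the count lower in M-BSG-Hot against M-BSG ran from 7 (these groups alone) to 246 (3 libraries left out), beside 92. What a replicate number marks is not stated in the labels. Of 18 correlations of same-numbered libraries, 4 exceeded 0.1 (range -0.287 to 0.408), and 6 of 18 were best with their own number. All of these 4 and all of these 6 lay between NC, BSG and M-BSG, where every value was above 0 (0.0356 to 0.408). Pairs with M-BSG-Hot ran from -0.287 to 0.0333, and none was best with its own number. Whether libraries of 1 number were handled together was not tested. With the replicate block, 7 genes in place of 8 were higher in BSG against NC (TRA2B at edgeR adjusted p = 0.056; ZRANB2 lost its M-BSG call, at 0.058), and the other counts were 4 lower there, 7 higher and 3 lower in M-BSG against NC, 3 higher and 6 lower in M-BSG-Hot against NC, 0 in M-BSG against BSG, and 0 higher and 8 lower in M-BSG-Hot against M-BSG. The cause of these changes was not tested. With scaling by library size alone, the median of all genes in BSG against NC was -0.0948 on the log2 scale, beside -0.0171.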
